A study of Homo sapiens with 12 samples.

Results

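The cholesterol and fatty acid synthesis genes were 30 genes chosen by name: 18 enzymes of the mevalonate and sterol pathway, 8 enzymes of fatty acid synthesis and its acetyl-CoA supply, and 4 regulators or carriers. All 30 were found, each in a single row, among the 23195 genes of both deposited Nutlin-3a tables, the 20026 genes of the siRFX7 table in DMSO and the 19393 genes of the siRFX7 table in Nutlin-3a. RNA selected for polyA tails was sequenced from HCT116, an established line of human colorectal carcinoma cells whose p53 is intact. The cells carried either siControl, a control siRNA, or siRFX7, which targets the transcription factor RFX7. They were given 10 µM Nutlin-3a, an MDM2 inhibitor that stabilizes p53, or its solvent DMSO for 24 h. The groups were siControl with DMSO, siControl with Nutlin-3a, siRFX7 with DMSO and siRFX7 with Nutlin-3a, with 3 libraries each and 12 in all. All came from the same cell line, the labels do not say whether the libraries of a group came from separate cultures, and the number of siRNAs used against RFX7 is not given in the sources used here. P-values therefore measure only the spread between these libraries, which may be technical.

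Cells make cholesterol from acetyl-CoA through mevalonate, farnesyl diphosphate, squalene and lanosterol, and make fatty acids from the same acetyl-CoA through malonyl-CoA. Both arms are switched on by the SREBP transcription factors, SREBP1 (from SREBF1) mainly for fatty acids and SREBP2 (from SREBF2) mainly for sterols. These factors are made as membrane proteins, escorted by SCAP, held back by INSIG proteins when sterols are plentiful, and released by proteolysis, so their activity is set largely after transcription. INSIG1 is itself a target of the SREBPs, and p53 is known to restrain the mevalonate pathway in some cell types.

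The study asked which genes RFX7 controls at rest and when p53 is active. As checks of the labels, RFX7 had a log2 fold change of -2.35 in DMSO and -2.14 in Nutlin-3a with siRFX7 by the authors' deposited tables. MDM2, a p53 target, had log2 fold changes of 3.99 and 3.30 with Nutlin-3a in siControl and siRFX7 by the authors' deposited tables. All 8 epithelial markers (EPCAM, CDH1, keratins and claudins) had mean normalized counts of 425 or more. Of the 3 intestinal markers, CDX2 had a mean of 698, while VIL1 and CDH17 had means below 10. Of 11 leukocyte, fibroblast and endothelial markers, COL1A1 had a mean of 441, and the others were either not listed or at 13.5 and below. The summed epithelial markers ranged from 121735 to 284194 normalized counts between the groups, and their part in the results on lipid genes was not tested. Mean normalized counts of all genes summed to 26801484, and the depth of single libraries is unknown.

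The files hold statistics per comparison, so no value per library can be shown. Group means given here were recovered from each gene's mean normalized count and its fold changes. The threshold for a called change was 0.05 on the adjusted p-value of the authors' deposited table, with no minimum fold. The median standard error of a member's log2 fold change was about 0.07, and the members' mean normalized counts ran from 299 (CYP51A1) to 48232 (FASN). Per kilobase of annotated exon, the highest mean levels were those of SCD at 5764, FASN at 5151 and ACLY at 2185 normalized counts, all of the fatty acid arm. The highest per kilobase among the sterol enzymes was FDFT1 at 954, and the lowest of all members was FADS2 at 39.8.

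Promoter sequence was available for 26 of the 30 members, as windows of 300 bases from RefSeq (GRCh38.p14, from 250 before to 50 after each start). CCAAT, the box bound by NF-Y, a partner of the SREBPs, was present on either strand in 21 of these 26 genes, against 39.7% of the 27305 genes with a window. By arm, 13 of 15 sterol genes, 5 of 7 fatty acid genes and 3 of 4 regulators had it. The GC box GGGCGG was in 25 of 26, against 48.3% of all genes. The E-box CACGTG was in 3 (LSS, SC5D and INSIG1), against 8.77% of all genes. The sterol response element form TCACNCCAC was in 1 member, SREBF2, against 1.39% of all genes, and there it lay within a longer form of the element, printed in capitals in the SREBF2 sequence, which 0.0586% of all genes held. For the X-box, the motif of RFX factors, only a short form and the string GTTGCTA were searched. Neither was found in the members' windows, against 0.732% and 3.49% of all genes. The full motif and its other forms were not searched, so the windows may still hold an X-box. The 27305 genes were not limited to genes expressed in these cells, as all members were. No comparison at like expression was made, so the higher shares of CCAAT and GGGCGG may not be particular to lipid genes. These matches describe letters in short windows and are not binding sites shown by these data.

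The stretches of 30 bases below are shown because they belong to the regulators and to enzymes on which the results turn. Each is written 5′ to 3′ on the gene's strand, with the matched letters in capitals: the sterol response element of SREBF2, the E-box of INSIG1, and CCAAT boxes (ATTGG where the box lies on the other strand) of the rest.
SREBF2 (chr22:41832961-41832990, plus strand): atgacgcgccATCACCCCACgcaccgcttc
SREBF2 (chr22:41832989-41833018, plus strand): tcgctcgcccATTGGctgagatgagcctgg
INSIG1 (chr7:155297813-155297842, plus strand): cgggcaggctCACGTGatgcgggccccgcg
INSIG1 (chr7:155297698-155297727, plus strand): ccggcctcccATTGGttgcggccgcctcac
HMGCS1 (chr5:43313493-43313522, minus strand): accggccgcgATTGGctgtgggagccaccg
FDPS (chr1:155308734-155308763, plus strand): cggccagcagCCAATcagcgcggctcatct
EBP (chrX:48521728-48521757, plus strand): gagagtgtctATTGGttgggagcggcacgg
TM7SF2 (chr11:65111788-65111817, plus strand): ccgagcgccgATTGGctggtgtgctgggcc
Distances are from the RefSeq start, which differs from the GENCODE start given with the gene values. In SREBF2 (RefSeq start 41833105) the sterol response element began 134 bases before the start and the CCAAT box 106 bases before it. The CCAAT box of TM7SF2, which rose with Nutlin-3a, lay 74 bases before its RefSeq start of 65111872, and the box shown for EBP, which fell, lay 70 bases before its RefSeq start of 48521808. The GENCODE start of EBP lies further upstream, at 48521158, so that this box is inside the annotated gene there.

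**Figure D1:**
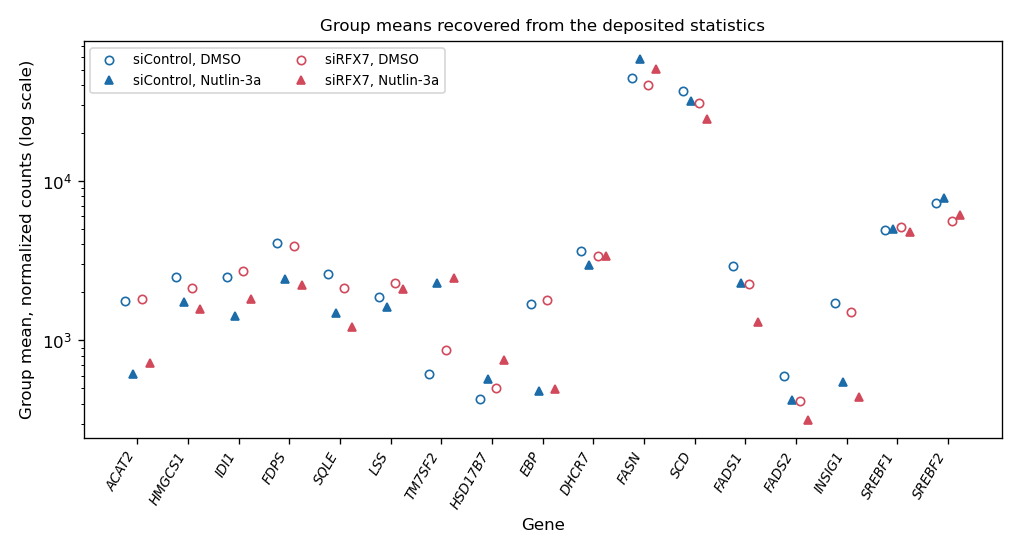
Group means of 17 members in normalized counts (log axis), recovered from the deposited statistics; open circles are DMSO, triangles Nutlin-3a, blue siControl and red siRFX7. The triangles of ACAT2, EBP and INSIG1 lie far below their circles under both siRNAs, those of TM7SF2 far above, and the red symbols of SCD, FADS1, FADS2 and SREBF2 lie below the blue ones of the same treatment.

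Nutlin-3a against DMSO asked how these genes respond to p53 stabilization. In siControl cells most of the sterol arm was lower with Nutlin-3a: 13 of 18 enzymes fell and 2 rose by the authors' deposited table, while the fatty acid arm was mixed, with 4 of 8 lower and 1 higher. Over all members 19 of 30 fell and 3 rose, against 43.2% of all genes called, 21.2% lower and 22.0% higher. The largest falls were those of EBP, INSIG1 and ACAT2, and the largest rise was that of TM7SF2. In siRFX7 cells the authors' deposited table gave 10 lower and 2 higher in the sterol arm, and 4 lower and 2 higher in the fatty acid arm. Over all members 15 fell and 5 rose there, against 41.4% of all genes called, 19.7% lower and 21.7% higher, by the authors' deposited table. The shares over all genes include genes with far lower counts than any member, which are harder to call. In siControl 73.3% of the members were called, beside 76.1% of 46 other lipid genes (21 higher and 14 lower), by the authors' deposited table. In bulk RNA, fewer cells expressing a gene and less RNA per cell cannot be told apart.

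The median log2 fold change of the sterol arm was -0.27 in siControl and -0.27 in siRFX7 by the authors' deposited tables, beside 0.02 and -0.02 over all genes. That of the fatty acid arm was -0.16 and -0.13 by the authors' deposited tables. Within the sterol arm, the 8 enzymes up to squalene synthase (FDFT1) had medians of -0.45 and -0.39, and the 10 from squalene epoxidase (SQLE) onward had -0.22 and -0.09 by the authors' deposited tables. The difference between the arms' medians was not tested, and it rested on 2 genes: without ACLY and ACSS2, which supply acetyl-CoA, the fatty acid median was -0.27 under each siRNA, as in the sterol arm. Summed group means of the sterol arm in siControl went from 35612 normalized counts in DMSO to 27575 in Nutlin-3a, which was 77.4% of the DMSO sum. The fatty acid sum in siControl was 104178 in DMSO and 110845 in Nutlin-3a, or 106.4%, and FASN alone made up 42.5% of the DMSO sum.

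**Figure D2:**
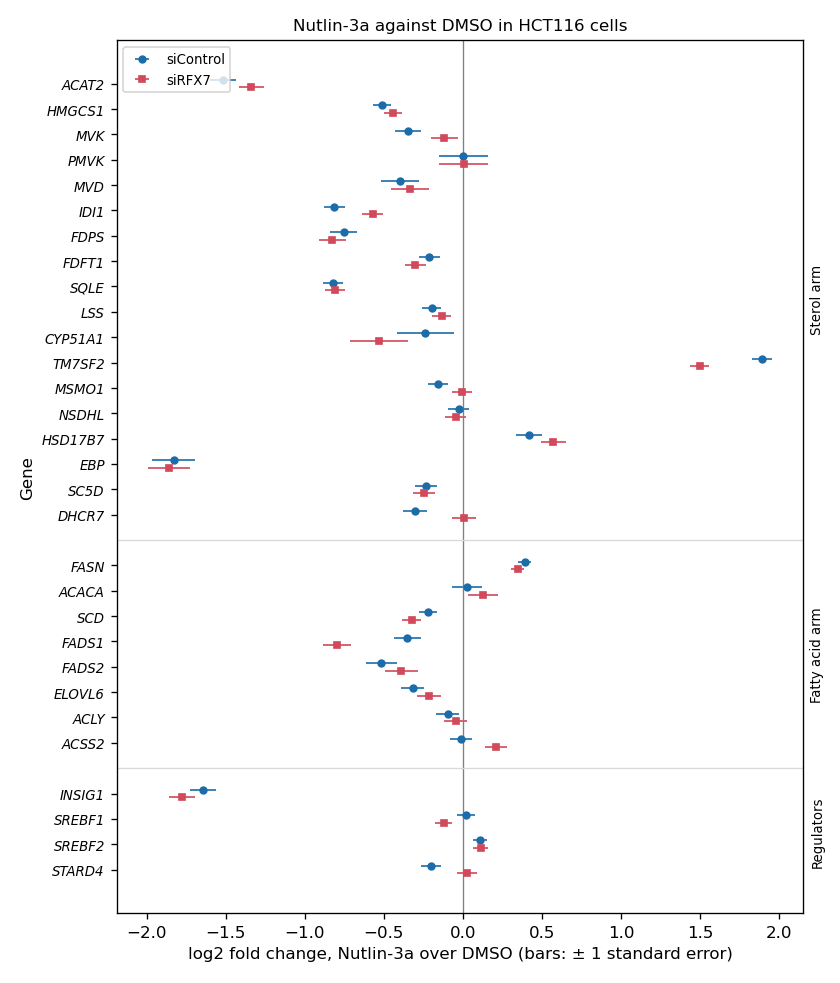
Log2 fold change of Nutlin-3a over DMSO (x axis) for each of the 30 members (y axis, by arm), in siControl (blue circles) and siRFX7 (red squares), with bars of 1 standard error, from the authors' deposited tables. Most sterol genes lie left of 0, the enzyme EBP and the regulator INSIG1 lie farthest at -1.83 and -1.64 in siControl, and TM7SF2 lies far right at 1.89 and 1.50.

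Among the early enzymes, ACAT2, the cytosolic thiolase that opens the pathway (ENSG00000120437, chromosome 6 from 159760328 to 159779055, plus strand, GRCh38), changed most. Its recovered group means were 1765 (DMSO) and 617 (Nutlin-3a) normalized counts in siControl cells, and 1827 (DMSO) and 723 (Nutlin-3a) in siRFX7 cells. Under both siRNAs the Nutlin-3a mean was well below the DMSO mean. The log2 fold change with Nutlin-3a was -1.52 (standard error 0.08, DESeq2 adjusted p 1.67e-75) in siControl and -1.34 (standard error 0.08, DESeq2 adjusted p 1.16e-60) in siRFX7 by the authors' deposited tables. Exons of ACAT2 share 397 bases, 9.23% of its exon length, with TCP1 on the other strand. They also share 1141 bases (26.5%) with SOD2 and 1458 bases (33.9%) with SOD2-OT1, both on the other strand. SOD2-OT1 had a mean of 1.15 normalized counts, and no count was available for SOD2. Whether strand was used in counting is not given in the sources used here. TCP1, a chaperonin subunit with a mean of 17721 normalized counts, also fell with Nutlin-3a, with log2 fold changes of -0.56 under each siRNA by the authors' deposited tables. The share of ACAT2 reads that came from these overlaps was not tested.

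IDI1, the isopentenyl diphosphate isomerase, had group means of 2490 (DMSO) and 1416 (Nutlin-3a) normalized counts in siControl cells, and 2718 (DMSO) and 1830 (Nutlin-3a) in siRFX7 cells. By the authors' deposited tables its log2 fold change with Nutlin-3a was -0.81 in siControl (DESeq2 adjusted p 5.60e-33) and -0.57 in siRFX7 (DESeq2 adjusted p 3.80e-17). FDPS, the farnesyl diphosphate synthase, fell by a like amount, with log2 fold changes of -0.75 and -0.83 by the authors' deposited tables. Processed pseudogenes of FDPS took reads as well: FDPSP1 and FDPSP5 had mean normalized counts of 160 and 140, and each fell with Nutlin-3a under both siRNAs by the authors' deposited tables. Reads of such near-identical copies could be split in counting, so the FDPS values are uncertain to that extent.

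HMGCS1, which makes HMG-CoA, had log2 fold changes with Nutlin-3a of -0.51 in siControl and -0.44 in siRFX7 by the authors' deposited tables. MVD, which decarboxylates the mevalonate product, had -0.40 and -0.33, and FDFT1, the squalene synthase, had -0.21 and -0.30, all called lower by the authors' deposited tables. MVK, the mevalonate kinase, was called lower in siControl at -0.35, and its log2 fold change in siRFX7 was -0.12 with a DESeq2 adjusted p of 0.294 by the authors' deposited tables. PMVK, the next kinase, was not called under either siRNA, with log2 fold changes of 0.00 and 0.00 and standard errors of 0.15 by the authors' deposited tables. PMVK was the sole early enzyme called under neither siRNA, and its 95% interval in siControl ran from -0.30 to 0.30.

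Past squalene, EBP, the sterol isomerase (ENSG00000147155, chromosome X from 48521158 to 48528716, plus strand), had the largest fall of all members. Its group means were 1702 (DMSO) and 479 (Nutlin-3a) normalized counts in siControl cells, and 1798 (DMSO) and 496 (Nutlin-3a) in siRFX7 cells. The Nutlin-3a level was 28.1% of DMSO in siControl and 27.6% in siRFX7, from log2 fold changes of -1.83 and -1.86 (standard error 0.13 each, DESeq2 adjusted p 1.32e-40 and 4.72e-42) by the authors' deposited tables. SQLE, the squalene epoxidase and a rate-limiting step of the pathway, had group means of 2606 (DMSO) and 1475 (Nutlin-3a) normalized counts in siControl cells, and 2117 (DMSO) and 1208 (Nutlin-3a) in siRFX7 cells. Its log2 fold changes with Nutlin-3a were -0.82 and -0.81 by the authors' deposited tables, so that 56.6% and 57.1% of the DMSO level remained.

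TM7SF2, a sterol reductase that acts just after the removal of the first methyl group from lanosterol (ENSG00000149809, chromosome 11 from 65111845 to 65116384, plus strand), went the other way. Its group means were 619 (DMSO) and 2298 (Nutlin-3a) normalized counts in siControl cells, and 875 (DMSO) and 2471 (Nutlin-3a) in siRFX7 cells. The Nutlin-3a level was 3.71-fold the DMSO level in siControl and 2.82-fold in siRFX7, from log2 fold changes of 1.89 (standard error 0.07, DESeq2 adjusted p 7.58e-184) and 1.50 (standard error 0.06, DESeq2 adjusted p 4.63e-127) by the authors' deposited tables. LBR, the lamin B receptor, catalyses the same step and was added after the values of TM7SF2 were seen. Its group means moved opposite to those of TM7SF2, from 5540 normalized counts in DMSO to 2179 in Nutlin-3a in siControl, and from 4079 to 1910 in siRFX7. The LBR log2 fold changes were -1.35 and -1.09, both called lower by the authors' deposited tables. Its Nutlin-3a effect also differed between the siRNAs, with an interaction (siRFX7 minus siControl) of 0.25 (z test adjusted p 0.00360). With siRFX7, LBR was called lower at -0.44 in DMSO and -0.19 in Nutlin-3a by the authors' deposited tables.

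HSD17B7, a reductase in the removal of the later methyl groups, also rose, with log2 fold changes of 0.42 in siControl (DESeq2 adjusted p 1.49e-06) and 0.57 in siRFX7 (DESeq2 adjusted p 2.43e-12) by the authors' deposited tables. Its near copy HSD17B7P2, an unprocessed pseudogene with a mean of 42.6 normalized counts, was higher too, by 1.38 and 1.45 by the authors' deposited tables, so the split of reads between them is uncertain. NSDHL, which works beside HSD17B7, was not called under either siRNA, with log2 fold changes of -0.03 and -0.04 by the authors' deposited tables. MSMO1, the oxidase of the same series of steps, was called lower in siControl at -0.16 and was at -0.00 in siRFX7, not called, by the authors' deposited tables.

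Small falls were called for LSS, the lanosterol synthase, at -0.20 in siControl, and for SC5D, a sterol desaturase, at -0.23 in siControl and -0.24 in siRFX7 by the authors' deposited tables. LSS in siRFX7 was at -0.13 with a DESeq2 adjusted p of 0.0570 by the authors' deposited table, and with equal total counts it was called, at -0.19. DHCR7, the reductase that makes cholesterol itself, was called lower in siControl at -0.30 and was at 0.01 in siRFX7, not called, by the authors' deposited tables. CYP51A1, the lanosterol demethylase, was called only in siRFX7, at -0.53 (standard error 0.18), and was at -0.24 (standard error 0.18) in siControl by the authors' deposited tables. The z test of its interaction gave an adjusted p of 0.684. CYP51A1 counts are uncertain, since its processed pseudogenes CYP51A1P1 and CYP51A1P2 had means of 264 and 370 normalized counts, near or above its own 299. In addition, 79.4% of its exon length is shared with an annotated overlapping gene on the same strand in GENCODE 29.

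In the fatty acid arm FASN, the fatty acid synthase, rose: its group means were 44276 (DMSO) and 58047 (Nutlin-3a) normalized counts in siControl cells, and 39866 (DMSO) and 50737 (Nutlin-3a) in siRFX7 cells. The log2 fold change was 0.39 (standard error 0.04, DESeq2 adjusted p 2.13e-19) in siControl and 0.35 (standard error 0.04, DESeq2 adjusted p 1.68e-15) in siRFX7 by the authors' deposited tables. Among the members that act on the product of FASN, SCD and ELOVL6 fell. SCD, which introduces the first double bond, had log2 fold changes of -0.22 and -0.32, and ELOVL6, an elongase, had -0.32 and -0.21, all called by the authors' deposited tables. FADS1 and FADS2, the desaturases of polyunsaturated fatty acid synthesis, had log2 fold changes of -0.35 and -0.52 in siControl and -0.80 and -0.39 in siRFX7, all called lower by the authors' deposited tables. Not all genes of these steps fell: outside the members, the second stearoyl-CoA desaturase gene SCD5 was called higher at 0.77 and 0.78, the elongase ELOVL1 at 0.57 and 0.69 and the elongation reductase HSD17B12 at 0.22 and 0.27 by the authors' deposited tables. The elongase ELOVL5 was called lower, at -0.91 and -0.86, by the authors' deposited tables.

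ACACA, the acetyl-CoA carboxylase that commits carbon to fatty acids, was not called, with log2 fold changes of 0.03 in siControl and 0.13 in siRFX7 by the authors' deposited tables. ACLY, which makes acetyl-CoA from citrate, was not called either, at -0.10 and -0.05 by the authors' deposited tables. ACSS2, which makes it from acetate, had group means of 891 (DMSO) and 885 (Nutlin-3a) normalized counts in siControl cells, and 679 (DMSO) and 785 (Nutlin-3a) in siRFX7 cells. Its log2 fold change with Nutlin-3a was -0.01 in siControl, not called, and 0.21, called higher, in siRFX7 by the authors' deposited tables. With the groups scaled to equal total counts, the ACSS2 value in siRFX7 was 0.16 and no longer called.

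Among the regulators, INSIG1 (ENSG00000186480, chromosome 7 from 155297776 to 155310235, plus strand) stood with EBP and ACAT2. Its group means were 1708 (DMSO) and 547 (Nutlin-3a) normalized counts in siControl cells, and 1510 (DMSO) and 441 (Nutlin-3a) in siRFX7 cells. Nutlin-3a left 32.0% of the DMSO level in siControl and 29.2% in siRFX7, from log2 fold changes of -1.64 and -1.78 (standard error 0.08 each, DESeq2 adjusted p 1.27e-88 and 1.32e-98) by the authors' deposited tables. The SREBP genes themselves differed little with Nutlin-3a. SREBF1 had group means of 4933 (DMSO) and 5002 (Nutlin-3a) normalized counts in siControl cells, and 5175 (DMSO) and 4761 (Nutlin-3a) in siRFX7 cells, and was called in none of the 4 comparisons of the authors' deposited tables. SREBF2 had log2 fold changes with Nutlin-3a of 0.11 in siControl (DESeq2 adjusted p 0.0505) and 0.11 in siRFX7 (DESeq2 adjusted p 0.0459) by the authors' deposited tables. The SREBF2 call in siRFX7 was lost with equal total counts, where its value was 0.06. Under the same scaling SREBF1 was called lower with Nutlin-3a in siRFX7, at -0.17, against -0.12 and no call in the authors' deposited table. STARD4, a cholesterol carrier in the cytosol, had group means of 1208 (DMSO) and 1051 (Nutlin-3a) normalized counts in siControl cells, and 1226 (DMSO) and 1247 (Nutlin-3a) in siRFX7 cells, so that siControl with Nutlin-3a was the lowest. It was called lower in siControl at -0.20 and was at 0.03 in siRFX7, not called, by the authors' deposited tables.

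The siRFX7 comparisons asked which of these genes depend on RFX7. Here the arms differed in another way. No member of the fatty acid arm rose, and 5 of 8 fell in DMSO and 4 of 8 in Nutlin-3a. The sterol arm had as many higher as lower in DMSO (4 and 4) and more higher than lower in Nutlin-3a (6 and 2) by the authors' deposited tables. At an unadjusted p below 0.05 in the same deposited DESeq2 tables, the fatty acid members gave 0 higher and 6 lower in DMSO, and 0 higher and 5 lower in Nutlin-3a. Outside the members, 11 genes of fatty acid elongation, desaturation and activation were mixed with siRFX7. In DMSO 4 of them were higher and 3 lower, and in Nutlin-3a 5 were higher and 2 lower, by the authors' deposited tables. SCD5 was among those higher, at 0.42 and 0.43 by the authors' deposited tables. Over all 30 members, 10 were lower and 4 higher in DMSO, against 29.0% of all genes called, 15.5% lower and 13.5% higher, by the authors' deposited table. In Nutlin-3a 8 were lower and 7 higher, against 28.6% of all genes called, 13.6% lower and 15.0% higher, by the authors' deposited table. The medians of the fatty acid arm were -0.21 in DMSO and -0.18 in Nutlin-3a and those of the sterol arm 0.01 and 0.06, beside -0.00 and 0.00 over all genes by the authors' deposited tables. The direction of each arm's count held with equal total counts except in the sterol arm in DMSO, where 5 were higher and 3 lower. The summed fatty acid group means with siRFX7 in DMSO were 88.6% of siControl DMSO, and those of the sterol arm 98.4%. The total over the 20026 genes with group means was also lower, at 25915992 in siRFX7 DMSO and 26957653 in siControl DMSO. Most of the fatty acid sum of 104178 in siControl DMSO came from FASN (44276) and SCD (36857).

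**Figure D3:**
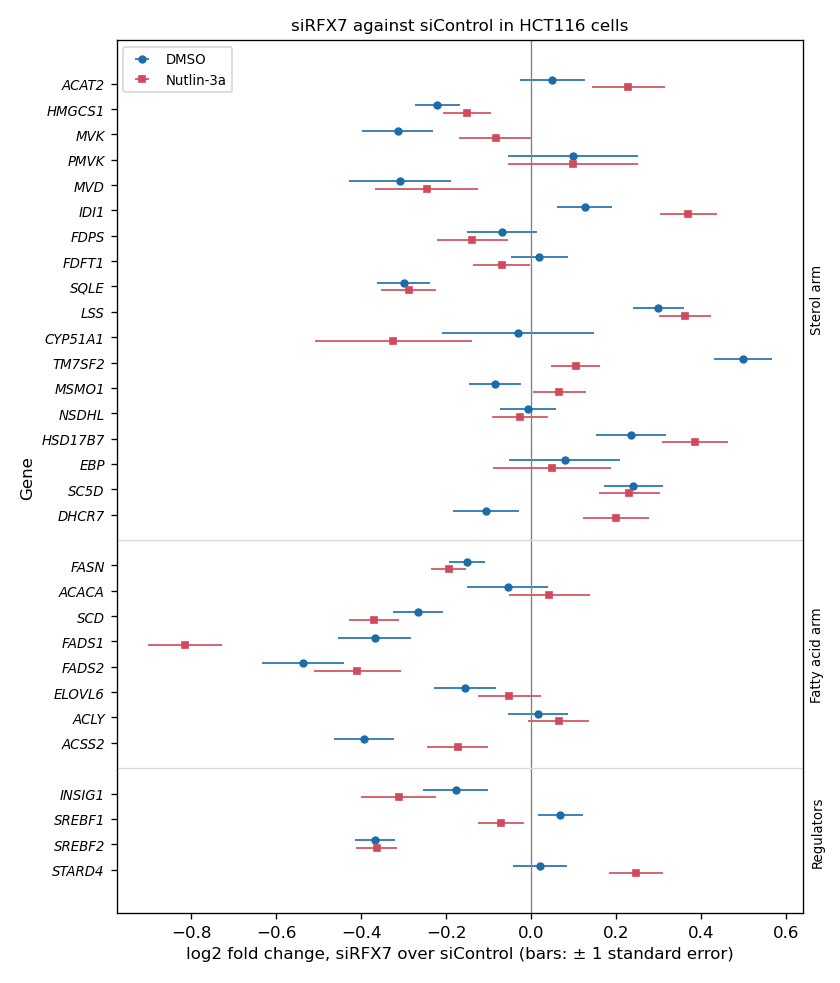
Log2 fold change of siRFX7 over siControl (x axis) for each of the 30 members (y axis, by arm), in DMSO (blue circles) and Nutlin-3a (red squares), with bars of 1 standard error, from the authors' deposited tables. FADS1, FADS2, SCD and SREBF2 lie left of 0 in both treatments, with FADS1 in Nutlin-3a farthest at -0.81, and LSS, HSD17B7 and SC5D lie right of 0 in both.

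The genes lower in both treatments with siRFX7 were FASN, SCD, FADS1 and FADS2 of the fatty acid arm, HMGCS1 and SQLE of the sterol arm, and SREBF2. SREBF2 (ENSG00000198911, chromosome 22 from 41833079 to 41907308, plus strand) had group means of 7265 (DMSO) and 7833 (Nutlin-3a) normalized counts in siControl cells, and 5632 (DMSO) and 6089 (Nutlin-3a) in siRFX7 cells. Both siRFX7 means lay below both siControl means. The level with siRFX7 was 77.5% of siControl in DMSO and 77.7% in Nutlin-3a, from log2 fold changes of -0.37 and -0.36 (standard error 0.05 each, DESeq2 adjusted p 4.75e-13 and 7.86e-13) by the authors' deposited tables. For SREBF1 the log2 fold changes with siRFX7 were 0.07 and -0.07 by the authors' deposited tables.

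FADS1 and FADS2 overlap on chromosome 11, with FADS1 (ENSG00000149485, from 61799625 to 61829318, minus strand) inside the span of FADS2 (ENSG00000134824, from 61792980 to 61867354, plus strand). They share 490 bases of exon on opposite strands, 4.79% of the FADS1 exon length. The group means of FADS1 were 2912 (DMSO) and 2283 (Nutlin-3a) normalized counts in siControl cells, and 2256 (DMSO) and 1298 (Nutlin-3a) in siRFX7 cells. The group with both treatments was the lowest, and the groups with either treatment alone were near each other. With siRFX7 the log2 fold change of FADS1 was -0.37 without Nutlin-3a (DESeq2 adjusted p 1.43e-04) and -0.81 with it (DESeq2 adjusted p 8.09e-19), each with a standard error of 0.09, by the authors' deposited tables.

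FADS2 had group means of 602 (DMSO) and 421 (Nutlin-3a) normalized counts in siControl cells, and 415 (DMSO) and 317 (Nutlin-3a) in siRFX7 cells. Its log2 fold changes with siRFX7 were -0.54 and -0.41 (standard error 0.10 each, DESeq2 adjusted p 4.58e-07 and 4.97e-04) by the authors' deposited tables. FADS2 exons also share 49 bases with FEN1, a replication gene on the same strand that fell by 3.75 with Nutlin-3a in siControl on the log2 scale by the authors' deposited table, and the part of FEN1 reads in the FADS2 values was not tested. SCD had group means of 36857 (DMSO) and 31619 (Nutlin-3a) normalized counts in siControl cells, and 30660 (DMSO) and 24486 (Nutlin-3a) in siRFX7 cells. Its log2 fold changes with siRFX7 were -0.27 in DMSO (DESeq2 adjusted p 5.58e-05) and -0.37 in Nutlin-3a (DESeq2 adjusted p 7.04e-09) by the authors' deposited tables. FASN was lower with siRFX7 by less, at -0.15 and -0.19 by the authors' deposited tables, and the DMSO call was lost with equal total counts, where it was -0.09. SCDP1, a processed pseudogene of SCD, had a mean of 1231 normalized counts, 3.98% of that of SCD. Its log2 fold changes with siRFX7 were -0.39 in DMSO and -0.47 in Nutlin-3a, neither called, by the authors' deposited tables. The split of reads between SCD and SCDP1 was not tested.

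ACSS2 was called lower with siRFX7 in DMSO at -0.39 (DESeq2 adjusted p 5.34e-07, standard error 0.07), while in Nutlin-3a it was at -0.17 with a DESeq2 adjusted p of 0.0517 by the authors' deposited tables. SQLE had log2 fold changes with siRFX7 of -0.30 in DMSO and -0.29 in Nutlin-3a, and HMGCS1 of -0.22 and -0.15, all called by the authors' deposited tables. The HMGCS1 call in Nutlin-3a was lost with equal total counts, where it was -0.12. MVK and MVD were called lower in DMSO alone, at -0.31 each, and were at -0.08 and -0.25 in Nutlin-3a, not called, by the authors' deposited tables. The MVD call in DMSO was lost with equal total counts, where it was -0.25. INSIG1 was called lower with siRFX7 in Nutlin-3a at -0.31, and was at -0.18 in DMSO with a DESeq2 adjusted p of 0.0648 by the authors' deposited tables. The remaining uncalled members of the fatty acid arm, ACACA, ACLY and ELOVL6, had log2 fold changes between -0.15 and 0.07 in both treatments by the authors' deposited tables.

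In the other direction, LSS had group means of 1868 (DMSO) and 1628 (Nutlin-3a) normalized counts in siControl cells, and 2300 (DMSO) and 2095 (Nutlin-3a) in siRFX7 cells. Its log2 fold changes with siRFX7 were 0.30 and 0.36 (standard error 0.06 each, DESeq2 adjusted p 6.92e-06 and 4.51e-08) by the authors' deposited tables. HSD17B7 had group means of 429 (DMSO) and 574 (Nutlin-3a) normalized counts in siControl cells, and 505 (DMSO) and 750 (Nutlin-3a) in siRFX7 cells, the last being the highest. With siRFX7, HSD17B7 was higher at 0.23 and 0.39 and SC5D at 0.24 and 0.23 in DMSO and Nutlin-3a, all called by the authors' deposited tables. TM7SF2 was called higher in DMSO at 0.50 (DESeq2 adjusted p 9.53e-12) and was at 0.10 in Nutlin-3a, not called, by the authors' deposited tables. IDI1, STARD4, ACAT2 and DHCR7 were called higher in Nutlin-3a alone, at 0.37, 0.25, 0.23 and 0.20 by the authors' deposited table. TCP1, which overlaps ACAT2 on the other strand, was called higher with siRFX7 at 0.19 in each treatment by the authors' deposited tables. The part of this overlap in the ACAT2 value was not tested. The 7 sterol genes called in neither treatment were PMVK, FDPS, FDFT1, CYP51A1, MSMO1, NSDHL and EBP, and EBP was at 0.08 and 0.05 by the authors' deposited tables.

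The interaction asked whether the Nutlin-3a effect itself differed between siRFX7 and siControl. It was computed from the authors' deposited tables as the Nutlin-3a log2 fold change in siRFX7 minus that in siControl, with a z test adjusted over all genes. For most members no difference was detectable: 2 of 30 were called, both below 0 (TM7SF2 and FADS1), against 2.92% of all genes below 0, 3.28% above 0 and 6.20% in all. None was called above 0 by this z test, and at an unadjusted p below 0.05 there were 4 above 0 and 2 below 0. MVK, LSS, MSMO1, DHCR7 and STARD4, which were called with Nutlin-3a in siControl and not in siRFX7, and MVD, IDI1, ACAT2, ACSS2 and INSIG1, which were called with siRFX7 in 1 treatment and not in the other, are thus not shown to differ between these settings. A share of called members this near to that of all genes is not a result about the group.

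The interaction of TM7SF2 was -0.39 (standard error 0.09, z test adjusted p 5.39e-04), with a 95% interval from -0.57 to -0.22. Its siRFX7 mean in DMSO was above the siControl mean, while the Nutlin-3a means lay close together, at 2298 and 2471 normalized counts. The interaction of FADS1 was -0.45 (standard error 0.12, z test adjusted p 0.00746), with a 95% interval from -0.69 to -0.21. Here the siRFX7 mean was lower in both treatments and farther below in Nutlin-3a. Both calls kept their direction and their side of the threshold with a threshold of 0.01 and with both other scalings, and neither passed a minimum size of 0.58. MDM2, the p53 target used as a check of the labels, also had an interaction below 0, at -0.69 (z test adjusted p 1.90e-12). With siRFX7, MDM2 was higher in DMSO at 0.49 and lower in Nutlin-3a at -0.21, both called by the authors' deposited tables. Whether its difference and those of the lipid genes are related was not tested.

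DHCR7 had the largest value above 0, at 0.31 (standard error 0.11, 95% interval 0.09 to 0.52), with a z test adjusted p of 0.0713. Restricting the test to genes with a mean of at least 100 normalized counts gave it an adjusted p of 0.0422. For EBP and SQLE the interaction was -0.03 (95% interval -0.40 to 0.34) and 0.01 (95% interval -0.16 to 0.19), with z test adjusted p-values of 0.977 and 0.982. INSIG1 had -0.13 (95% interval -0.36 to 0.09) and SREBF2 had 0.00 (95% interval -0.13 to 0.14), with z test adjusted p-values of 0.681 and 0.993. These intervals bound the difference that could have gone undetected.

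**Figure D4:**
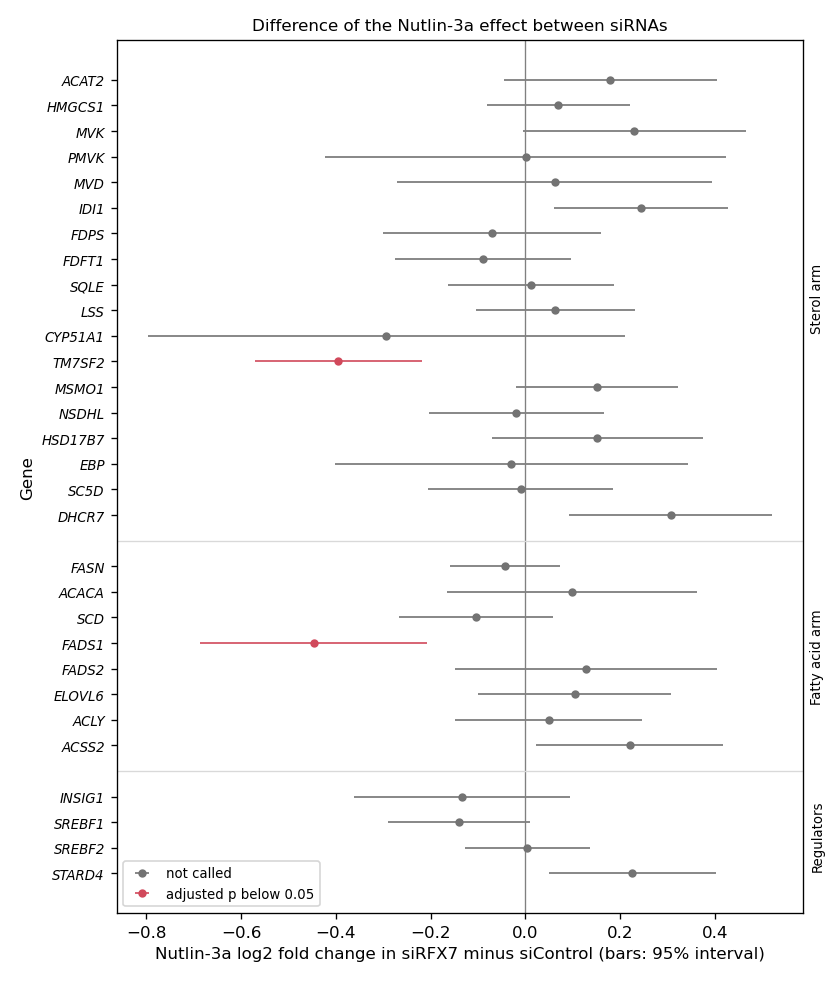
Difference of the Nutlin-3a log2 fold change, siRFX7 minus siControl (x axis), for each of the 30 members (y axis, by arm), with bars of the 95% interval; red marks an adjusted p below 0.05 by the z test. TM7SF2 at -0.39 and FADS1 at -0.45 are the red points, and most other intervals include 0.

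Of 47 other genes of lipid synthesis, transport and regulation, 46 were listed. With Nutlin-3a in siControl 21 of these 46 were higher and 14 lower, and in siRFX7 21 were higher and 13 lower by the authors' deposited tables. Of all genes, 43.2% were called in siControl (22.0% higher and 21.2% lower) and 41.4% in siRFX7 (21.7% and 19.7%). With siRFX7 13 were higher and 14 lower in DMSO, and 17 higher and 12 lower in Nutlin-3a by the authors' deposited tables, beside 29.0% and 28.6% of all genes called. The counterparts of the SREBP system included TMEM97, a sterol-regulated membrane protein, which fell with Nutlin-3a at -1.49 in siControl and -1.62 in siRFX7 by the authors' deposited tables. INSIG2, the second INSIG gene, rose at 0.61 and 0.36, and SCAP rose at 0.36 and 0.26 by the authors' deposited tables. MBTPS1, the protease that makes the first SREBP cut, rose at 0.31 and 0.57 by the authors' deposited tables, and its interaction was 0.26 (z test adjusted p 0.0363).

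Of 5 genes of the LXR arm (the receptor genes NR1H2 and NR1H3, the ligase gene MYLIP and the exporters ABCA1 and ABCG1), 4 were called higher with Nutlin-3a under each siRNA by the authors' deposited tables, beside 22.0% of all genes in siControl and 21.7% in siRFX7. The 4 were not the same: NR1H2 was not called in siControl, at 0.14 with a DESeq2 adjusted p of 0.0776, and ABCG1 was not called in siRFX7, at 0.23 with a DESeq2 adjusted p of 0.418, by the authors' deposited tables. ABCA1, the exporter of cellular cholesterol, had group means of 35.4 (DMSO) and 479 (Nutlin-3a) normalized counts in siControl cells, and 113 (DMSO) and 719 (Nutlin-3a) in siRFX7 cells. Its log2 fold change with Nutlin-3a was 3.76 (standard error 0.21, DESeq2 adjusted p 4.66e-69) in siControl and 2.67 (standard error 0.17, DESeq2 adjusted p 2.40e-51) in siRFX7 by the authors' deposited tables. With siRFX7, ABCA1 was higher at 1.67 in DMSO and 0.59 in Nutlin-3a by the authors' deposited tables, and its interaction was -1.09 (z test adjusted p 0.00259). SOAT1, which esterifies cholesterol for storage, and NPC1, which exports it from lysosomes, had interactions of 0.33 and 0.40 (z test adjusted p 0.00568 and 0.0225).

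In the fatty acid branch, ACSL3, which activates fatty acids, fell with Nutlin-3a at -1.35 in siControl and -1.13 in siRFX7, and FADS3, a relative of FADS1 and FADS2, rose at 1.41 and 1.42 by the authors' deposited tables. MID1IP1, an activator of acetyl-CoA carboxylase, rose with Nutlin-3a at 1.39 and 1.68 and fell with siRFX7 at -0.99 in DMSO and -0.70 in Nutlin-3a by the authors' deposited tables. The Nutlin-3a and siRFX7 comparisons share libraries pairwise, so their values are set side by side and no overlap between them is given.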

How the data were processed

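The values are 4 tables of the authors' own comparisons, 1 row per gene; values per library were not used here. Per the submitters' processing notes, the tools included Trimmomatic 0.39, cutadapt 2.10, featureCounts 1.6.5 and DESeq2 1.20.0, with build hg38; the aligner, the annotation and the use of strand are not given in the sources used here. Per the file headers, the deposited base mean is a signal: normalized read counts averaged over all libraries. The log2 fold changes and standard errors are on the log2 scale, per the file headers. The deposited Wald statistic is a score equal to the fold change over its standard error. Each p-value, raw or adjusted, is from the authors' DESeq2 test. Read as siRFX7 over siControl, the siRFX7 fold changes and the Nutlin-3a fold changes added up around the 4 groups to within 1.27e-14.

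Group means were computed from the mean of the 4 groups and the fold changes, treating the groups' fitted means as averaging to the deposited mean. The interaction was a two-sided z test with Benjamini-Hochberg adjustment over 23195 genes, and it treats standard errors as known. The test was run on simulated data whose noise was drawn from the deposited standard errors. That run therefore cannot show whether these standard errors hold with 3 libraries in a group. The edgeR test planned for counts was not run. Exon lengths and positions came from GENCODE 29 (GRCh38), promoters from RefSeq. Scripts used Python 3.11.15, pandas 2.3.3 and scipy 1.17.1. The members and lists were chosen with earlier results of these data known. All members could be named; those with a called interaction, the 3 largest changes per comparison and the regulators were described in full, and other pathway genes were named where their interaction was called or their log2 fold change was at least 1 in size and called. A gene that met this rule is not reported here. INSIG2, SCAP, the LXR arm other than ABCA1, SCD5, ELOVL1, ELOVL5, HSD17B12, LBR, TCP1, FEN1 and the pseudogenes lie outside that rule and were named after their values were seen. SOD2 and SOD2-OT1 also lie outside it and were named for their overlap with ACAT2. The depth of each library is unknown, so precision rests on the authors' standard errors.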

Additional observations from a re-analysis of the deposited data

Results flagged for a closer look

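These results stand out because the response to Nutlin-3a was not the same under the 2 siRNAs, by a z test of the difference itself (siRFX7 minus siControl). Among the members, TM7SF2 had an interaction of -0.39 and FADS1 of -0.45. Among the other pathway genes, ABCA1 had -1.09, MBTPS1 0.26, SOAT1 0.33 and NPC1 0.40. LBR, added after the values of TM7SF2 were seen, had 0.25. Over all genes the same test called 6.20%.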

How the results depend on the processing

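The deposited tables set the limits here: leaving out replicates, refits with edgeR or DESeq2 and other size factors need values per library and were not run. No paired analysis was possible because the tables hold no values per library and the replicate numbers enter no fit. The depth of single libraries is unknown; among the members the lowest mean, 299 normalized counts for CYP51A1, came with a standard error of 0.18.

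A minimum absolute log2 fold change of 0.58 moved most counts of members called: for Nutlin-3a under either siRNA to 1 higher with 6 lower, for siRFX7 to 0 in both directions in DMSO and to 0 higher with 1 lower in Nutlin-3a, and for the interaction to 0 below 0. The Nutlin-3a count in siRFX7 of 5 higher became 3 with a threshold of 0.01 and 3 with equal total counts. The interaction gave 1 member above 0, DHCR7, when genes under a mean of 100 were left out. Without ACLY and ACSS2 the fatty acid arm's median moved to -0.27 with Nutlin-3a in siControl, -0.27 in siRFX7 and -0.28 with siRFX7 in Nutlin-3a. Centring on the median of all genes turned the sign of uncalled values: PMVK to -0.014 with Nutlin-3a in siControl and -0.0023 in the interaction, and MSMO1 to 0.013 with Nutlin-3a in siRFX7. Equal total counts turned PMVK to -0.020 and SREBF1 to -0.0037 with Nutlin-3a in siControl; PMVK to -0.049, DHCR7 to -0.048 and STARD4 to -0.029 in siRFX7; CYP51A1 to 0.026, NSDHL to 0.049 and ACACA to 0.0016 with siRFX7 in DMSO; NSDHL to 0.00071 in Nutlin-3a; and, in the interaction, PMVK to -0.029, SQLE to -0.018 and SREBF2 to -0.026. None of these was called in either setting. Equal total counts also gained calls for LSS and SREBF1 (lower with Nutlin-3a in siRFX7) and IDI1 (higher with siRFX7 in DMSO), and brought the sterol arm with Nutlin-3a in siRFX7 from 10 to 11 lower.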
